A study of Arabidopsis thaliana with 8 samples.

Results

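Transcripts of 6 Arabidopsis cell separation genes were examined among the 25686 loci that had unique reads in libraries of shoot regeneration from roots. The genes were named one by one: the polygalacturonase genes ADPG1 (AT3G57510), PGAZAT, also called ADPG2 (AT2G41850), and QRT2 (AT3G07970), the receptor kinase genes HAESA (AT4G28490) and HSL2 (AT5G65710), and the peptide gene IDA (AT1G68765). They were chosen by name with the read counts of these same libraries, and the ratios of hag1 to Col and between stages made from them, in view, so their levels and ratios are given as a description and carry no test. The samples were roots and root explants of hag1, which is mutated in HAG1 (AtGCN5), the Arabidopsis GCN5 gene for an enzyme that acetylates histones, set against those of the wild type Columbia-0 (Col). In each genotype RNA came from roots, from explants after 4 days on callus-inducing medium (CIM), and from explants moved from CIM to shoot-inducing medium (SIM) for 2 days or for 2 weeks. Each genotype and stage had 1 library, so no value below has a replicate and every interval covers counting error only. The labels name no hag1 allele and do not say how many plants were pooled.

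Plant organs are shed, and fruits and anthers open, where cells come apart along a layer of wall rich in pectin. In the abscission zone of the Arabidopsis flower the secreted peptide IDA binds the receptor-like kinases HAESA and HSL2 with co-receptors of the SERK family, and a mitogen-activated kinase cascade carries the signal to wall-degrading enzymes. ADPG1, ADPG2 and QRT2 are polygalacturonases, which cut the pectin chain, and they act in anther and fruit opening and in floral organ abscission. IDA, HAESA and HSL2 also act in roots, in the tissue over an emerging lateral root, and callus on CIM is known to arise along a lateral root programme.

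Library totals were 6.96 to 7.54 in units of 1000000 unique reads. A count of 0 allows up to 3 reads, or 0.364 to 0.450 counts per 1000000 (CPM, scaled by the trimmed mean of M values, TMM). HAG1 itself had 21, 8, 16 and 13 reads in hag1 root, CIM, SIM 2 days and SIM 2 weeks, against 171, 204, 340 and 156 reads in Col. Of the flower and seed markers, AP1, SEP3 and CRA1 had 0 reads in every library, and AG and AP3 had at most 3. The seed marker OLEO1 was detected only before culture, with a count of 25 for Col and 1 for hag1. FUS3, also a seed marker, was detected only at SIM 2 weeks, with a count of 6 for Col and 1 for hag1. The floral homeotic gene PI alone had 55, 208, 155 and 84 reads along the stages in hag1, against 6, 56, 294 and 86 reads in Col. The flower list (3 of 5 with reads) summed to 8.07 to 28.9 CPM over the hag1 libraries and 1.33 to 35.8 CPM over the Col libraries. Leaf markers (4 of 4 with reads) summed to 22.5 to 303 CPM over the hag1 libraries and 23.3 to 839 CPM over the Col libraries, with both maxima at SIM 2 weeks. The endodermis list (3 of 3 with reads) summed to 0.830 CPM in hag1 and 1.42 CPM in Col on CIM, against 319 CPM in hag1 roots and 800 CPM in Col roots. In RNA from whole explants, fewer cells of a type and less RNA per cell cannot be told apart.

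The polygalacturonase genes ADPG1 and PGAZAT are shown first as sequence, because both had more reads in hag1 than in Col explants on SIM. The 300 bases before each gene start were read from the RefSeq assembly TAIR10.1, on the strand of the gene (ADPG1 at chr3:21285942-21286241, reverse strand; PGAZAT at chr2:17464243-17464542, reverse strand). Capitals mark a stretch of 25 bases that differs at 1 base between the genes.
ADPG1: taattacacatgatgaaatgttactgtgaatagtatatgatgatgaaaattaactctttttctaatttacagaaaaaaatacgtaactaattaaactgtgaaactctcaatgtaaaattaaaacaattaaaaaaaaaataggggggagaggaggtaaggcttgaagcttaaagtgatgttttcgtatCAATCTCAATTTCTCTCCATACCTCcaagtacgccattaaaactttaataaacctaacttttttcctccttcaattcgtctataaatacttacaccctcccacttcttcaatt
PGAZAT: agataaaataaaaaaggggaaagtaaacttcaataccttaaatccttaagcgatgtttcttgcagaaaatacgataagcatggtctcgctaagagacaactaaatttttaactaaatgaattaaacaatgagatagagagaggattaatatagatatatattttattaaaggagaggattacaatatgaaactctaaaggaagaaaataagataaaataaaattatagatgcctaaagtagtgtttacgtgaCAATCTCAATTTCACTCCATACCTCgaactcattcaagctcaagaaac
RefSeq places the gene start further upstream than the deposited files do, by 81 bases in PGAZAT, 93 in QRT2, 181 in HAESA and 294 in IDA, and at the same base in ADPG1 and HSL2. The stretch lay 113 to 89 bases before the start of ADPG1, and 48 to 24 bases before the RefSeq start of PGAZAT or 129 to 105 bases before the start in the files. It was picked as the longest stretch with at most 1 differing base between these promoters, so its presence in both is a description. That no other promoter matched as closely follows in part from this choice, and stretches shared by other gene pairs were not searched. Among 27443 promoters of the same length, searched on both strands, 0 others held it with at most 4 differing bases. The closest others, 2 promoters, had 5 differing bases, and the best match in the promoter of QRT2 had 11. ADPG1 and PGAZAT coding sequences were 76.8% identical over 1289 aligned bases, with a longest identical run of 23 bases, whereas ADPG1 and QRT2 were 63.9% identical. The deposited counts hold unique reads, and reads from the most alike stretches of ADPG1 and PGAZAT could still be assigned with less certainty than others.

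ADPG1 (chr3:21283338-21285941 of TAIR10, reverse strand, 1 listed transcript model) was near absent until explants had been on SIM. It had 1, 0, 15 and 465 reads in hag1 root, CIM, SIM 2 days and SIM 2 weeks, against 0, 0, 0 and 22 reads in Col. The 2-week library stood far above all earlier ones within each genotype, and at that stage hag1 was above Col. At SIM 2 weeks the ratio of hag1 to Col was 21.0-fold, or 4.39 on the log2 scale (95% counting interval 3.78 to 5.08). At SIM 2 days, where Col had no read, ADPG1 was 5.68-fold higher in hag1 with Col set at 3 reads. The lower limit of the counting interval of that ratio was 2.03 on the log2 scale. Within hag1, SIM 2 weeks was 33.4-fold above SIM 2 days. Within Col it was 9.06-fold above with SIM 2 days set at 3 reads, and the lower limit of the counting interval was 2.76 on the log2 scale. Reads covered 95.7% of the transcript in hag1 and 49.4% in Col at SIM 2 weeks, as the deposited coverage gives it. The leaf markers, which peaked at the same stage, summed to 303 CPM in hag1 and 839 CPM in Col, so they stood in the opposite order to ADPG1, and their part in the ADPG1 levels was not tested.

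PGAZAT (chr2:17461655-17464161, reverse strand, 1 listed model) peaked earlier, on CIM. It had 36, 517, 77 and 109 reads along the 4 stages in hag1, against 11, 42, 1 and 4 reads in Col. hag1 was above Col at every stage, and in both genotypes CIM was the highest stage. On CIM the ratio of hag1 to Col was 13.2-fold (log2 3.72, interval 3.27 to 4.21). At SIM 2 weeks it was 27.1-fold (log2 4.76, interval 3.36 to 6.66), and at SIM 2 days, against 1 read in Col, it was 6.45 on the log2 scale with an interval of 3.93 to 11.8. Roots had fewer than 50 reads in both genotypes, with a log2 ratio of 1.65 (interval 0.65 to 2.77). Within hag1, CIM was 14.0-fold above root, and within Col 3.34-fold. At SIM 2 days the level was 10.6 CPM in hag1 and 0.121 CPM in Col. The flower list, through PI, was also higher in hag1 on CIM, at 28.9 CPM in hag1 and 7.23 CPM in Col, but at SIM 2 days it was at 21.4 CPM in hag1 and 35.8 CPM in Col, and its part in the PGAZAT levels was not tested.

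QRT2 (chr3:2541006-2543432, forward strand, 1 listed model) went the other way at the last stage. It had 216, 53, 75 and 114 reads along the stages in hag1, against 90, 77, 95 and 434 reads in Col. The hag1 library was above Col in roots, close to it on CIM and at SIM 2 days, and below it at SIM 2 weeks. The log2 ratio of hag1 to Col was 1.20 in roots (interval 0.84 to 1.58) and -1.94 at SIM 2 weeks (interval -2.25 to -1.64), and the intervals on CIM and at SIM 2 days spanned 0. Within hag1 the root held the highest QRT2 level, 30.6 CPM, while within Col it was SIM 2 weeks, at 65.1 CPM. At SIM 2 weeks, where QRT2 was lower in hag1, several marker lists were lower in hag1 too: leaf at 303 CPM in hag1 and 839 CPM in Col, endodermis at 9.09 CPM in hag1 and 77.6 CPM in Col, root hair at 30.6 CPM in hag1 and 77.3 CPM in Col, and xylem at 8.05 CPM in hag1 and 29.1 CPM in Col. In roots, where QRT2 was higher in hag1, the leaf list stood at 148 CPM in hag1 and 109 CPM in Col. The other lists were lower in hag1 roots: endodermis at 319 CPM in hag1 and 800 CPM in Col, root hair at 203 CPM in hag1 and 300 CPM in Col, and xylem at 299 CPM in hag1 and 436 CPM in Col. The part of these markers in the QRT2 level was not tested.

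**Figure D1:**
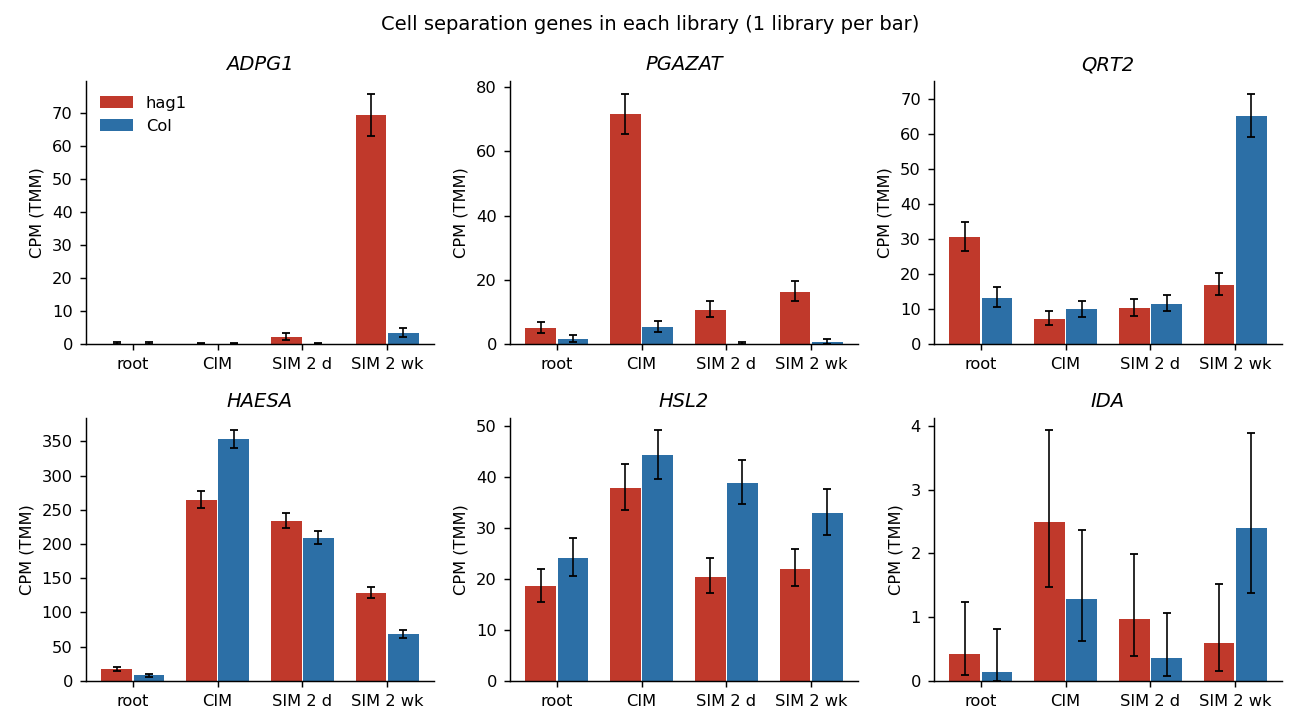
Level of each of the 6 genes in CPM after TMM scaling (y axis, a separate scale per gene) in roots and explants, with hag1 in red beside Col in blue; each bar is 1 library and its line the 95% Poisson counting interval. ADPG1 reaches 69.3 CPM in hag1 at SIM 2 weeks, against 3.30 CPM in Col, and PGAZAT 71.5 CPM in hag1 on CIM, against 5.42 CPM in Col.

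HAESA (chr4:14077857-14081171, forward strand, 1 listed model), an IDA receptor gene of floral abscission, differed more between root and CIM than between the genotypes at any stage. It had 120, 1915, 1694 and 865 reads along the stages in hag1, against 54, 2732, 1725 and 455 reads in Col. In both genotypes the root was the lowest stage and CIM the highest. Within hag1, CIM was 15.6-fold above root, and within Col 44.3-fold. Of the senescence markers (4 of 4 with reads), SAG12 and SAG13 had 0 reads on CIM and at most 3 in any library, so their sum rests on ORE1 and SGR1. The sum was also highest on CIM, at 36.8, 102, 46.0 and 38.0 CPM along the stages in hag1 and 26.98, 108, 49.3 and 68.7 CPM in Col. SGR1 alone was highest in Col at SIM 2 weeks, with 279 reads against 221 on CIM. The part of these markers in the HAESA level was not tested. The log2 ratio of hag1 to Col was 1.09 in roots (interval 0.62 to 1.58), -0.41 on CIM (interval -0.50 to -0.33), 0.16 at SIM 2 days (interval 0.06 to 0.26) and 0.92 at SIM 2 weeks (interval 0.75 to 1.08). In CPM the libraries ran from Col CIM at 353 and hag1 CIM at 265 through hag1 SIM 2 days at 234, Col SIM 2 days at 210, hag1 SIM 2 weeks at 129 and Col SIM 2 weeks at 68.3 to hag1 root at 17.0 and Col root at 7.96. In 7 of the 7 neighbouring pairs of that order the counting intervals did not overlap, which leaves aside the spread between cultures.

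Since HAESA was high on CIM, an auxin-rich medium, the 300 bases before its start (chr4:14077376-14077675, forward strand, TAIR10.1) are shown with TGTCTC, the core of the auxin response element, in capitals.
HAESA: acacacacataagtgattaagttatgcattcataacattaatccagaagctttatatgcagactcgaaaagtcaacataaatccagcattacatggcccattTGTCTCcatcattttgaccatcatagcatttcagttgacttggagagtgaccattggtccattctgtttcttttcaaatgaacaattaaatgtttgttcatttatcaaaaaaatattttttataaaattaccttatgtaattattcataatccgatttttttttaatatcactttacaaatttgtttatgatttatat
The motif was searched as TGTCTC and its reverse complement GAGACA. It stood once, on the strand of the gene, 198 to 193 bases before the RefSeq start, or 379 to 374 bases before the start in the files. Of all 27443 promoters of that length, 13.0% held TGTCTC on either strand, so the match is a description only. QRT2 held TGTCTC 50 to 45 bases and PGAZAT held GAGACA 208 to 203 bases before the RefSeq start, while these letters were not in the windows of ADPG1, HSL2 and IDA. The G-box CACGTG (in 7.09% of all promoters) and the E-box variant CACGCG (in 2.93%), searched on both strands, were in the windows of 0 of the 6 genes. TATAAA, searched on the strand of the gene (in 37.0%), was in those of ADPG1, QRT2, HAESA and IDA.

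HSL2 (chr5:26292372-26295440, forward strand, 1 listed model), the second IDA receptor of floral abscission, varied least of the 5 genes that reached 50 reads in a library. It had 131, 273, 148 and 147 reads along the stages in hag1, against 163, 342, 319 and 219 reads in Col. At each of the 4 stages hag1 was below Col, by at most 0.92 on the log2 scale. The log2 ratios were -0.37 in roots, -0.23 on CIM with an interval that reached 0.01, -0.92 at SIM 2 days and -0.58 at SIM 2 weeks. Ordered by CPM over the 8 libraries, the counting intervals of HSL2 overlapped in 6 of 7 neighbouring pairs. Coding sequences of HAESA and HSL2 were 59.6% identical and those of HAESA and the related receptor gene HSL1 65.4% identical.

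**Figure D2:**
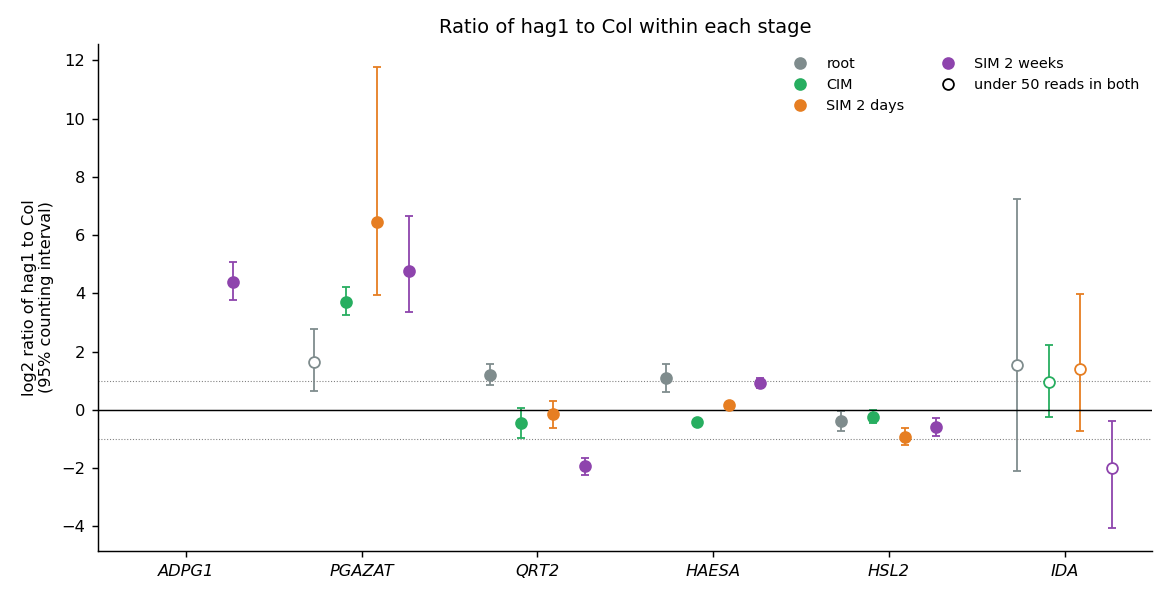
Ratio of hag1 to Col for each gene (x axis) within each stage, on a log2 scale (y axis), where 0 is equality and the dotted lines are 2-fold; points are ratios of 1 library to 1 library, lines the exact 95% counting intervals, and pairs in which a library had no read are left out. PGAZAT lies above 0 at all stages, at 3.72 on CIM and 4.76 at SIM 2 weeks, HSL2 lies below 0 at all stages, and QRT2 stands at 1.20 in roots and -1.94 at SIM 2 weeks.

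IDA (chr1:25829952-25830487, reverse strand, 1 listed model), the ligand, was close to the detection limit. It had 3, 18, 7 and 4 reads along the stages in hag1, against 1, 10, 3 and 16 reads in Col, under 50 in every library. The intervals of the hag1 and the Col level overlapped at each of the 4 stages. The interval of the ratio spanned 0 at the first 3, and at SIM 2 weeks the log2 ratio was -2.01 (interval -4.05 to -0.38). Ordered over the 8 libraries, 7 of 7 neighbouring pairs had overlapping intervals. IDA belongs to a family of IDA-like (IDL) peptide genes, and the stretch of coding sequence for the conserved end of the peptide is shown here because the family members differed so much in level. The 36 bases are those of the 7 genes, out of 8 searched, in which the pattern was found; capitals mark the 12 bases identical in all of them.
IDA: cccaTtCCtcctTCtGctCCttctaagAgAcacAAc
IDL1: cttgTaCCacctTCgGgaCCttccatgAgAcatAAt
IDL2: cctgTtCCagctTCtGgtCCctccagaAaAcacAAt
IDL3: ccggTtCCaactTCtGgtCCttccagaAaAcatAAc
IDL4: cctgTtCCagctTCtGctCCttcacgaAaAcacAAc
IDL5: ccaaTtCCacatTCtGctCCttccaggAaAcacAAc
IDL6: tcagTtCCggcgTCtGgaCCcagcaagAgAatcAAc
IDL5 shared 30 of 36 bases with IDA and IDL6 shared 22. Per transcript length (RPKM, reads per kilobase of transcript and per 1000000 reads), IDL7 had the highest level of the peptide genes in each of the 8 libraries. IDL7 stood at 143, 124, 71.9 and 39.6 RPKM along the stages in hag1, against 162, 81.8, 77.5 and 21.3 RPKM in Col. IDL5 stood at 21.7, 45.2, 38.1 and 24.6 RPKM in hag1, against 11.5, 31.9, 35.1 and 14.4 RPKM in Col. IDA was between 0.785 and 4.697 RPKM in hag1 and between 0.247 and 4.29 RPKM in Col.

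**Figure D3:**
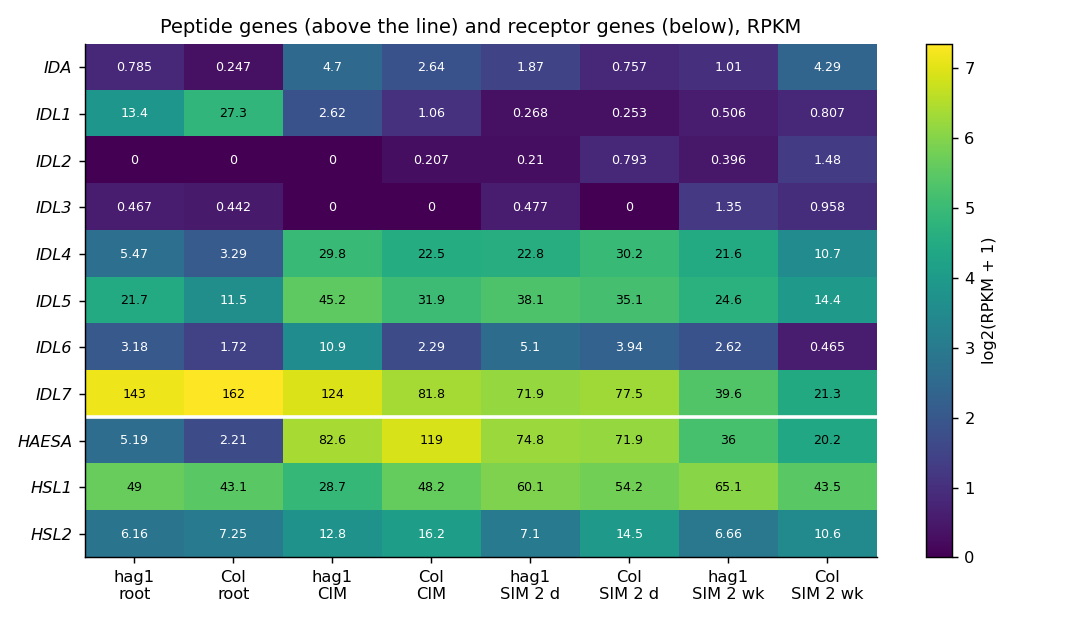
RPKM of the IDA-like peptide genes and of the 3 receptor genes (rows) in the 8 libraries (columns, hag1 left of Col within each stage), with the colour on a log2(RPKM + 1) scale and the value printed in each cell. IDL7 has the highest peptide value in every library, HSL1 varies from 28.7 to 65.1 RPKM, and HAESA has 82.6 RPKM in hag1 and 119 RPKM in Col on CIM, against 5.19 RPKM in hag1 and 2.21 RPKM in Col roots.

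Per transcript length, the order of the 6 genes differed between stages. HAESA stood first in both genotypes on CIM and at SIM 2 days, at 71.9 to 119 RPKM. At SIM 2 weeks ADPG1 stood first in hag1, at 39.2 RPKM with HAESA at 36.03, and QRT2 stood first in Col, at 45.1 RPKM with HAESA at 20.2. PGAZAT stood second in hag1 on CIM, at 43.4 RPKM, and below HAESA, HSL2 and QRT2 in Col, at 3.56 RPKM. QRT2 stood first in roots of both genotypes, at 21.9 RPKM in hag1 and 8.63 RPKM in Col.

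Where 50 or more reads were present in hag1 or in Col at a stage, a ratio of 2-fold or more was counted: 2 of 3 genes were higher in hag1 roots (QRT2 and HAESA), 1 of 4 on CIM and 1 of 4 at SIM 2 days (PGAZAT each time). At SIM 2 weeks 2 of 5 were higher in hag1 (ADPG1 and PGAZAT) and 1 was lower (QRT2). Over all genes with that many reads, 12.2% passed 2-fold in either direction in roots, 12.6% on CIM, 15.1% at SIM 2 days and 14.2% at SIM 2 weeks. Higher in hag1 were 4.39%, 5.01%, 5.48% and 2.60% along the stages, and lower in hag1 were 7.83%, 7.64%, 9.61% and 11.6%. Since these ratios were in view when the genes were chosen, nothing is read from the shares, nor from the ranks and sets that follow. PGAZAT at the explant stages and ADPG1 at SIM 2 weeks met the minimum of 50 reads through hag1 alone. Ranked from the highest ratio of hag1 to Col, PGAZAT was number 30 of 12495 genes on CIM, number 7 of 12470 at SIM 2 days and number 8 of 12186 at SIM 2 weeks, and ADPG1 was number 10 at SIM 2 weeks. Of 10846 genes with enough reads at all 3 explant stages, 60 (0.553%) were at least 2-fold higher in hag1 at each, and 10 (0.0922%), PGAZAT included, were at least 8-fold higher at each. In the additive model of stage and genotype over the 8 libraries (edgeR), the fitted log2 difference of hag1 from Col was 3.73 ± 0.61 (SE) for PGAZAT, -0.34 ± 0.51 for QRT2, 0.40 ± 0.27 for HAESA and -0.53 ± 0.16 for HSL2. Without both libraries of SIM 2 weeks the QRT2 value was 0.22, and without both root libraries it was -0.88.

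Genes with the most similar pattern to each of the 5 genes that reached 50 reads were taken by the smallest root mean square (RMS) difference of centred log2(CPM + 1) values over the 8 libraries, among 14826 genes. For ADPG1 these were AT4G29570, of the cytidine deaminase family, at 0.66, IND at 0.66 and the trypsin inhibitor gene TI1 at 0.72, where the RMS deviation of ADPG1 itself was 2.00. TI1 also had 114 to 253 reads in the root and CIM libraries, and with a pseudocount of 0.1 in place of 1 AT5G43590 took its place. IND encodes a bHLH factor of the fruit valve margin, where pods open. It had 1, 0, 43 and 183 reads along the stages in hag1, against 0, 0, 2 and 37 reads in Col. Both ADPG1 and IND were thus near 0 in roots and on CIM, and higher in hag1 than in Col at SIM 2 weeks, where the log2 ratio of IND was 2.30 (interval 1.78 to 2.85). IND is named here for its likeness to ADPG1 in these same libraries, so the shared pattern follows from the choice. The same holds for the genes named beside PGAZAT, QRT2, HAESA and HSL2. For PGAZAT the most similar genes were AT4G07850 at 0.86, AT5G09570 at 0.87 and AT4G22390 at 0.89, each with more reads in hag1 than in Col at all 4 stages. With a pseudocount of 0.1, AT5G16900 took the place of AT5G09570. For QRT2 they were the receptor-like kinase gene XIP1 at 0.32, DPE1, a glucanotransferase gene of starch breakdown, at 0.38 and SUMO5 at 0.40. For HAESA they were AT1G17600 at 0.29, of the TIR-NBS-LRR class of immune receptor genes, AT3G59440, an EF-hand gene, at 0.32 and AT5G17760 at 0.39, and with a pseudocount of 0.1 AT3G56770 took the place of AT1G17600. HSL2 itself varied little, with an RMS deviation of 0.43, and its neighbours were ABCI11, SUMO2 and GSL05 at 0.17 to 0.18.

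**Figure D4:**
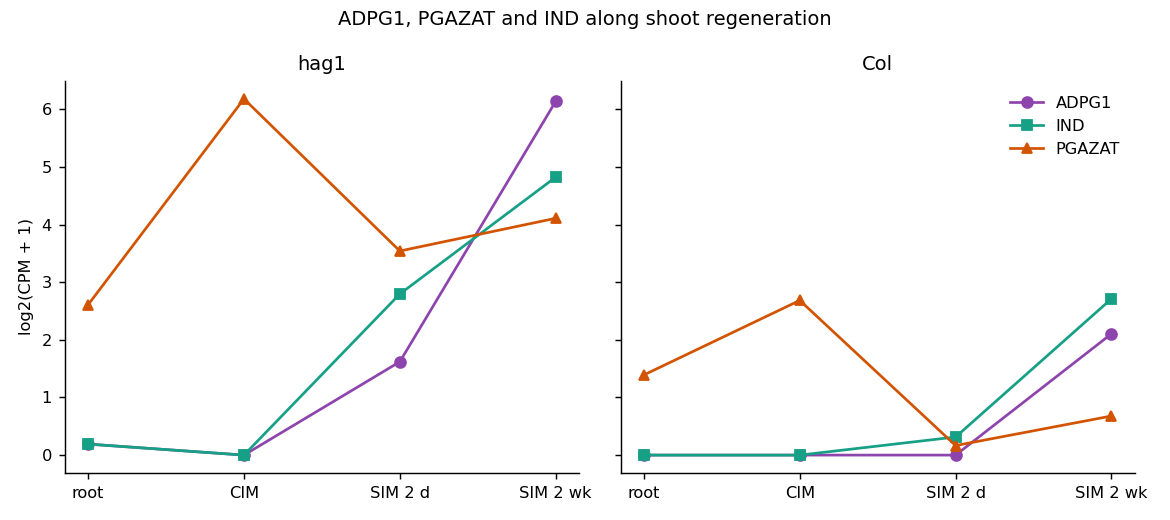
log2(CPM + 1) of ADPG1, IND and PGAZAT (y axis) along the 4 stages (x axis), in hag1 on the left and Col on the right, with 1 library per point. ADPG1 and IND leave the baseline on SIM and are highest at 2 weeks in both genotypes, while PGAZAT is highest on CIM.

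Around these 6 genes a list of 62 other genes of the pathway was read by role: peptides, receptors and co-receptors, signalling genes, regulators of abscission and fruit opening, wall enzymes, and genes of lateral root emergence. Of these, 49 passed the low-count filter and 23 had under 50 reads in every library. The list, too, was chosen with earlier results of these data known. Its counts beside the shares of all genes, here and below, are therefore a description. The 8 libraries allow a test only of changes that the genotypes or the stages share (edgeR quasi-likelihood test, Benjamini-Hochberg adjustment over all 18710 genes, threshold 0.05). The labels do not tell whether the cultures were independent, and the spread behind each p is that between these libraries. For hag1 against Col over the stages 0 of 49 passed, against 0.433% of all genes (0.241% higher and 0.192% lower in hag1). The median log2 difference was 0.05 over the list and -0.02 over all genes. An unadjusted edgeR p under 0.05 was reached by 9 of the 49, and DESeq2 called 2. The share of all genes at that looser cut or by DESeq2 is not given here, so nothing is read from either count.

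From root to CIM 14 of the 49 genes rose and 5 fell, where 12.7% of all genes rose, 17.0% fell and 29.7% passed in either direction. The list's median log2 change was 0.31, against 0.01 over all genes. Without 1 library the count was 8 (Col root or Col CIM left out) to 19, and 9 without hag1 CIM. Each fit with a library left out, here and below, has fewer residual degrees of freedom than the 3 of the full fit. How far this alone loses calls was not tested. Among the peptide genes IDL4 and IDL5 rose and IDL1 fell. IDL1 had 10 reads in hag1 and 4 in Col on CIM, against 51 in hag1 and 110 in Col roots, a log2 change of -3.53 ± 0.62 (SE) with an edgeR adjusted p of 0.0115. IDL4 had 60 reads in hag1 and 45 in Col on CIM, against 11 in hag1 and 7 in Col roots, a log2 change of 2.43 ± 0.45 (edgeR adjusted p 0.0129). IDL5 changed by 1.10 ± 0.26. With each of the 8 libraries left out in turn, the calls of IDL4 and IDL5 were lost in 4 fits each and that of IDL1 in 2.

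The co-receptor genes SERK2 and SERK4 and the receptor-like kinase gene SOBIR1, known as a brake on abscission in Arabidopsis, also rose on CIM, by log2 1.02, 1.47 and 1.07 (the SERK2 call was lost in 6 of the 8 fits with a library left out, SERK4 in 1 and SOBIR1 in 2), while of the signalling genes (the 4 kinase genes of the cascade and NEV, an ARF-GAP gene of membrane traffic) 0 of 5 passed. Among regulators AGL15 and AGL18, MADS-box genes that delay abscission when overexpressed, rose by 2.17 and 2.07, with the calls lost in 4 and 3 of those fits. ZFP2, a zinc finger gene with the same overexpression effect, rose as well. It had 379 reads in hag1 and 140 in Col on CIM, against 0 in both root libraries, so its fold is not given. Of the wall genes EXPA17 and PGX1 fell, and the expansin gene EXPA10 (log2 5.19), the endoglucanase gene CEL3 (4.01), PGIP2 (3.71) and XTH28 (0.67) rose. The XTH28 call was lost in 7 of the 8 fits and the CEL3 call in 1. EXPA17 had 1 read in hag1 and 2 in Col on CIM, against 137 in hag1 and 310 in Col roots. CEL3 had 5102 reads in hag1 and 2586 in Col on CIM, against 345 in hag1 and 121 in Col roots. PGX1, a polygalacturonase gene of cell expansion, had 1 read in each genotype on CIM, against 85 in hag1 and 194 in Col roots. LBD18 and ARF19, transcription factor genes of lateral root formation, rose by 4.00 and 0.98, with the calls lost in 3 and 2 fits. LAX3, an auxin influx carrier gene, fell by 3.87 (lost in 1 fit) and IAA14, an auxin response repressor gene, fell by 1.33 (lost in 3). Endodermis, root hair and xylem markers were lower on CIM than in roots in both genotypes, and their part in these changes was not tested.

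From CIM to SIM 2 days 0 of 49 passed, against 0.0695% of all genes (0.0641% rose and 0.00534% fell). An unadjusted edgeR p under 0.05 was reached by 9, and DESeq2 called 4. The share of all genes is again not given for these, so nothing is read from either count. From SIM 2 days to 2 weeks 6 rose and 4 fell, where 7.09% of all genes rose, 4.31% fell and 11.4% passed. The list's median log2 change was 0.07, against 0.01 over all genes. Scaled by total counts, 3 rose and 4 fell, and DESeq2 called 17, with no share of all genes given here for either. The main edgeR count was 6 that rose and 4 that fell. With 1 library left out, this count was 0 without Col SIM 2 days, 2 without Col SIM 2 weeks and 3 without hag1 SIM 2 weeks. It was also 5 without hag1 CIM and 6 without hag1 root or Col CIM, which are libraries of neither stage compared. IND rose by 2.83 ± 0.56 (edgeR adjusted p 0.0423), but with a library left out the call was lost in 7 of 8 fits, with values of 2.18 to 4.41. ATH1, a homeodomain gene, rose by 4.48, with the call lost in 5 fits. The polygalacturonase gene PGLR rose by 6.53 (lost in 2 fits), and CEL3 fell by 2.995 (lost in 7). PGX3, another polygalacturonase gene, rose, with 14 reads in hag1 and 41 in Col at 2 weeks, against 2 in hag1 and 0 in Col at 2 days, and its call was lost in 7 fits. EXPA17 rose too, with 29 reads in hag1 and 167 in Col at 2 weeks, against 3 in hag1 and 4 in Col at 2 days (lost in 1 fit). PGLR had 473 reads in hag1 and 884 in Col at 2 weeks, against 10 in hag1 and 9 in Col at 2 days. ARF19 fell by 1.03 (lost in 4 fits), and LBD18 fell, with 2 reads in hag1 and 0 in Col at 2 weeks, against 81 in hag1 and 519 in Col at 2 days (lost in 3). The remaining calls were XTH28, which rose (lost in 6), and SOBIR1, which fell (lost in 7). Leaf markers summed to 303 CPM in hag1 and 839 CPM in Col at 2 weeks, against 23.9 CPM in hag1 and 23.3 CPM in Col at 2 days, and RBCS1A, LHCB1.3 and LHCB2.2 of that list and PER64 of the endodermis list rose. Their part in these changes was not tested.

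Set against roots, SIM 2 weeks had 9 genes that rose and 9 that fell, where 11.9% of all genes rose, 14.9% fell and 26.8% passed. The list's median log2 change was -0.03, against 0.04 over all genes. The count was 9 without Col root, 10 without hag1 SIM 2 weeks, 11 when genes had to reach 1 CPM in 4 libraries, and at most 16 with any other library left out. Of the peptide genes IDL7 fell by 2.37 and IDL4 rose by 1.88, the IDL4 call being lost in 5 of the 8 fits with a library left out. IDL1 fell as well, with 2 reads in hag1 and 3 in Col at 2 weeks, against 51 in hag1 and 110 in Col roots. SERK2 rose by 1.74 (lost in 1 fit), and MPK3, a kinase of the cascade, fell by 1.91 (lost in 4). Of the regulators BOP2 fell by 2.39 (lost in 7), and IND and ATH1 rose. IND had 183 reads in hag1 and 37 in Col at 2 weeks, against 1 in hag1 and 0 in Col roots (lost in 1 fit). ATH1 had 48 reads in hag1 and 114 in Col at 2 weeks, against 5 in hag1 and 0 in Col roots (lost in 2).

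The wall genes EXPA10, PGLR, PGIP2, XTH28 and PGIP1 rose by 3.65, 3.60, 2.64, 1.28 and 0.90. The EXPA10 call was lost in 1 fit, that of PGLR in 3 and that of PGIP1 in 6. PGIP1 and PGIP2 encode inhibitors of fungal polygalacturonases. PGX1 and RCPG, both polygalacturonase genes, fell. PGX1 had 0 reads in hag1 and 1 in Col at 2 weeks, against 85 in hag1 and 194 in Col roots. RCPG had 2 reads in each genotype at 2 weeks, against 48 in hag1 and 164 in Col roots, and its call was lost in 5 fits. LBD18, LBD29 and IAA14 fell, with the calls lost in 4, 1 and 2 fits. Endodermis markers summed to 9.09 CPM in hag1 and 77.6 CPM in Col at 2 weeks, against 319 CPM in hag1 and 800 CPM in Col roots. Xylem markers summed to 8.05 CPM in hag1 and 29.1 CPM in Col at 2 weeks, against 299 CPM in hag1 and 436 CPM in Col roots, and leaf markers to 303 CPM in hag1 and 839 CPM in Col, against 148 CPM in hag1 and 109 CPM in Col roots. Their part in these changes was not tested.

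**Figure D5:**
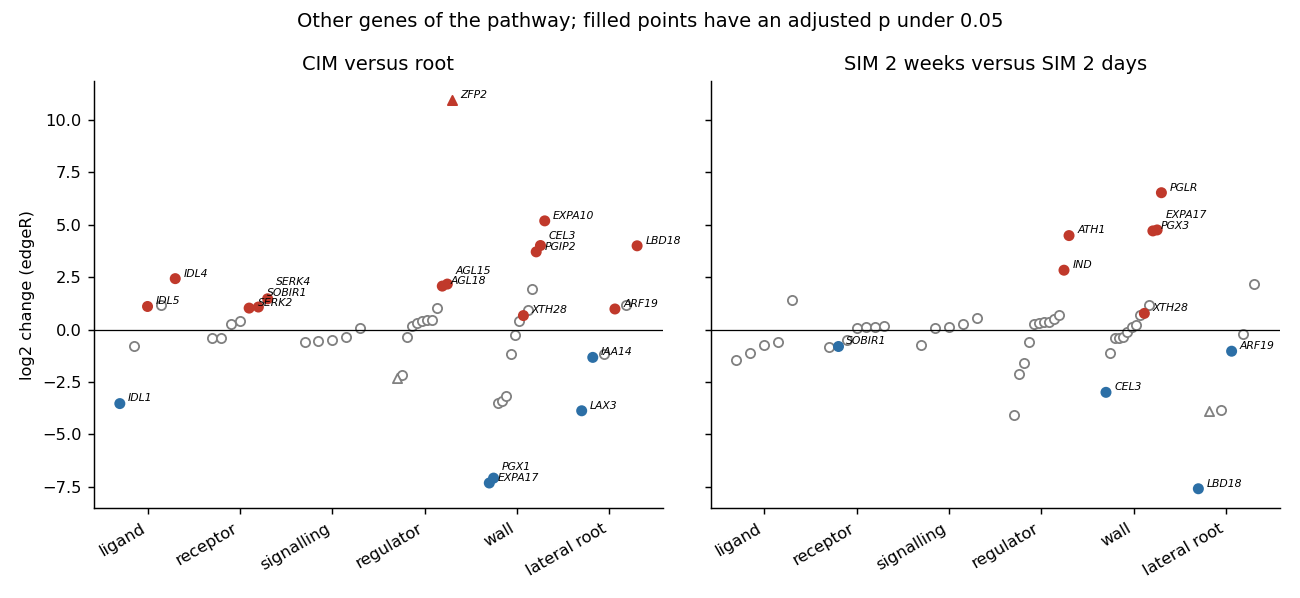
log2 change of the other pathway genes (y axis, edgeR model over the 8 libraries) by role (x axis), for CIM against root on the left and SIM 2 weeks against SIM 2 days on the right; each point is a gene, and filled points passed an adjusted p of 0.05, red where they rose and blue where they fell. Triangles mark genes with 0 reads in both libraries of a stage compared, whose height depends on the fit and is no measured fold, such as ZFP2 on the left, with 0 reads in both root libraries. On the right PGLR stands at 6.53.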

How the data were processed

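Unique read counts per transcript model, unscaled, come from the deposited tables, per the file headers. RPKM values deposited by the authors are these counts over transcript length and library total, which was checked on every line. The deposited coverage is the percent of a model covered by reads. The submitters' processing notes name TAIR10; for aligner, counter and strand use nothing is given in the sources used here. Counts were summed per locus and library, 1 library per group.

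Counts were scaled with TMM, filtered with filterByExpr and fitted with edgeR 4.0.16 (R 4.3.3) as stage plus genotype over 8 libraries, with 3 residual degrees of freedom, after the procedure was tested on simulated data. Within a stage, ratios carry exact 95% Clopper-Pearson intervals; levels carry Poisson intervals. DESeq2 1.42.0 and limma 3.58.1 served as alternatives, with other scalings, filters and libraries left out. Of 25536 nuclear loci, 24081 lay at an overlapping place in RefSeq TAIR10.1, 1453 were not listed there as genes and 2 lay elsewhere. Sequences were read from it.

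Members and lists were chosen with earlier results of these data known. Named were all members, HAG1, up to 4 called genes per role and comparison by size of change, and the 3 most similar genes per member; a few called genes are named beyond that, chosen after seeing their values.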

Additional observations from a re-analysis of the deposited data

Results flagged for a closer look

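The ratio of hag1 to Col went opposite ways at different stages for a pair of genes, and the difference between stages was not tested, since each group had 1 library. For QRT2 the log2 ratio was 1.20 in roots and -1.94 at SIM 2 weeks. For HAESA it was 1.09 in roots and -0.41 on CIM.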

How the results depend on the processing

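No paired analysis was possible because the labels number no replicates within a genotype and stage; stage itself is a term of the model, so hag1 and Col are compared within stages. Counts of pathway genes called for hag1 against Col were 0 under every setting run except the DESeq2 Wald test (2). Leaving out 1 library at a time gave 8 to 19 for CIM against root, 0 to 7 for SIM 2 weeks against SIM 2 days and 9 to 16 for SIM 2 weeks against root. For SIM 2 days against CIM the count was 1 with no low-count filter and 4 with DESeq2. For SIM 2 weeks against SIM 2 days it was 17 with DESeq2 and 6 without both root or both CIM libraries. For SIM 2 weeks against root it was 11 when genes had to reach 1 CPM in 4 libraries. The share of all genes called under each other setting is not given here, so these counts are not set against the main shares. Of the 6 genes, 4 passed 2-fold in roots when 1 read in both libraries sufficed. At SIM 2 days 2 passed under total counts, with a minimum of 10 reads, with 1 read in both libraries, or at 1.5-fold. The causes were not tested. Total counts in place of TMM moved every log2 ratio of hag1 to Col by 0.14 in roots, -0.11 on CIM, -0.10 at SIM 2 days and -0.08 at SIM 2 weeks, and of CIM to root in Col by 0.28. No direction was reversed among the results with a test. With fewer than 50 reads, IDA, root PGAZAT and ADPG1 before SIM 2 weeks are limited by depth.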
